A study of Homo sapiens with 47 samples.

Results

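The genes described here are 59 genes of chromosome 13, taken in order from the centromere towards the telomere, from PSPC1 to CHAMP1. They lie on both sides of NUP58, the gene that was edited with Cas9 in this study, and span 94.7 Mb. They were chosen by their own expression values: in clone C5 the genes from PSPC1 to PAN3 were higher than in wild-type cells and the genes from FLT1 on were lower. The levels and differences of these genes in the HAP1 lines are therefore given as a description, and no test is drawn from them. Of the 57507 genes measured, 59 are members, 19 from PSPC1 to PAN3 (the proximal genes) and 40 from FLT1 to CHAMP1 (the distal genes). Averaged over the HAP1 libraries, 58 of them reached 1 FPKM, the limit for testing, and DNAJC15, a mitochondrial co-chaperone, fell short with 0.0153 FPKM in wild-type cells. The member just inside this limit by its wild-type level was ELF1, an ETS transcription factor, at 1.58 ± 0.408 FPKM (SD, n = 4).

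HAP1 is a near-haploid human line derived from a chronic myeloid leukemia. The 32 HAP1 libraries were 4 each of wild-type cells (WT), of cells transfected with a Cas9 vector that carried no gRNA (EV) and of the NUP58 mutant clones C1, C2, C3, C4, C5 and C6, each of which grew from a single sorted cell after transfection with Cas9 and a pair of gRNAs against NUP58. HCT116, a near-diploid colorectal carcinoma line, gave 15 libraries, 4 labelled as a NUP58 mutant clone and 11 of unedited cells (wild type, or Cas9 with no gRNA). The 4 libraries of a line were replicates of the same clone or line, so their spread does not include the variation between clones. For 2 of the 11 HCT116 controls the title names another kind of unedited cell than the genotype does, so they count here as unedited cells with no further name.

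FPKM, the fragments of a gene per kilobase of transcript, scaled to the mapped fragments of the library, summed to 604053 to 654081 in the HAP1 libraries and to 619798 to 721992 in the HCT116 libraries. Relative sequencing depths, estimated from the smallest steps between FPKM values, lay between 0.759 and 1.142 in the HAP1 libraries and between 0.773 and 0.986 in HCT116. Of 5 blood markers none (0) had a median of at least 1 FPKM in HAP1 or in HCT116, and 3 of 4 mesenchymal markers did in both lines. In HCT116 2 of 5 markers of colon epithelium did, EPCAM and CDH1, and KRT20, CDH17 and LGALS4 did not. In bulk RNA, fewer cells that express a gene and less RNA of that gene per cell cannot be told apart.

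Genes on the same stretch of a chromosome share its number of DNA copies, and the RNA of most genes tends to follow that number. Where a chromosome has gained or lost a piece, the genes inside the piece often shift together whatever their function, and the edge of the piece can show as a step between neighbouring genes. Chromosome 13 is known in cancer for RB1, a tumor suppressor that restrains entry into S phase, and for BRCA2, a gene of homologous recombination. DNA copies were not analysed here, so all values below are levels of RNA.

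NUP58, a component of the central channel of the nuclear pore, lies at chr13:25301524-25365390 (GRCh38, plus strand), between MTMR6 and ATP8A2. Its FPKM in the WT libraries was 34.3, 34.7, 50.4 and 45.8, and in C5 it was 18.2, 11.9, 22.1 and 10.3. In C6 it was 15.8, 18.5, 14.3 and 13. The C5 and C6 libraries all lay below every WT library. On the log2(FPKM + 1) scale used for all differences here, NUP58 differed from WT by -1.39 (SE 0.233, adjusted p = 0.00659) in C5 and by -1.36 (SE 0.159, adjusted p = 0.000697) in C6 by limma with Benjamini-Hochberg adjustment over all genes tested. It was also lower in C1 (-1.91, adjusted p = 0.000363), C2 (-1.96, adjusted p = 0.000709) and C3 (-1.61, adjusted p = 0.0042). C4 did not pass by the same limma test (-0.66, adjusted p = 0.196), though its libraries (25.4, 22.6, 28 and 25.9 FPKM) also lay below every WT library. The paper reported lower NUP58 RNA in every mutant clone. EV did not pass either (-0.02, adjusted p = 1.0).

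The C5 pattern turned over between PAN3, a subunit of a deadenylase that trims poly(A) tails, at chr13:28138506-28295335 on the plus strand, and FLT1, the VEGF receptor VEGFR1, at chr13:28300346-28495145 on the minus strand. Only 5010 bases lie between the annotated ends of these genes. The promoters of the genes at this turn are shown because neighbours on either side of it differed from WT in opposite directions. They are the 250 bases before the RefSeq transcription start (GRCh38), 5′ to 3′ on the gene's own strand, for PAN3 at chr13:28138295-28138544, for FLT1 at chr13:28495129-28495378 and for POMP at chr13:28658880-28659129. Capitals mark 3 motifs on either strand. The GC box is GGGCGG on the strand shown or its complement. The TATA box is spelled TATAAA. The last motif, the CCAAT box, has no match in these windows. No matches overlap.
PAN3: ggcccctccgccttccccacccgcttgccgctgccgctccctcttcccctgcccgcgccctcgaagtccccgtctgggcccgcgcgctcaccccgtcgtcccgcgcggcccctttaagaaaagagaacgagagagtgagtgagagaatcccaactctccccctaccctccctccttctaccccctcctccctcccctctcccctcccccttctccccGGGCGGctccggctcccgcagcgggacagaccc
FLT1: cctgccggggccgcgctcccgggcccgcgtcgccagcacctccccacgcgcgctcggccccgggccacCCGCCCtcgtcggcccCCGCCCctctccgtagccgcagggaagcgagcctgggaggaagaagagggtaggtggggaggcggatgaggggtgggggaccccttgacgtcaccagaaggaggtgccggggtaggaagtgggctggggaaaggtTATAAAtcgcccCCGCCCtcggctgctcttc
POMP: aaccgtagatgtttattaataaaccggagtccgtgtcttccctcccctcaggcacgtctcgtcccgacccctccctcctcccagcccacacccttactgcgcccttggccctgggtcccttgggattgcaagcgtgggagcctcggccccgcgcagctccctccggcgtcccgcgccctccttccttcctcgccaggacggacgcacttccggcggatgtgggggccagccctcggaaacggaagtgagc

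All 3 promoters are rich in G and C, at 71.2% for PAN3, 73.2% for FLT1 and 66.4% for POMP. FLT1 alone of these holds a TATA box in this window, beside 3 GC boxes, PAN3 holds 1 GC box and POMP holds none of these letters. Over windows from 250 bases before to 50 bases after the start, RefSeq gave a promoter for 16 of the 19 proximal and 38 of the 40 distal genes. Their median GC content was 67.3% and 67.5%, against 58.7% over 35116 promoters. A GC box was present in 87.5% of the proximal, 63.2% of the distal and 45% of all promoters, a TATA box in 6.25%, 10.5% and 11.5%, and CCAAT in 18.8%, 31.6% and 34.6%. Nearly all members were expressed in HAP1, while the 35116 promoters were not limited to expressed genes, so these sets are unlike. The matches describe these letters only and show no binding.

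PAN3 had 10.6, 12.3, 9.32 and 10.9 FPKM in the WT libraries and 14.8, 14.9, 16 and 12.8 in C5, so that every C5 library lay above every WT library. In C6 it had 7.44, 8.34, 7.07 and 8.68, all below WT. The mean differences from WT were 0.41 in C5 and -0.40 in C6. POLR1D, a subunit shared by RNA polymerases I and III and the member just before PAN3, stood at 123, 148, 113 and 124 FPKM in WT and at 180, 180, 189 and 143 in C5. Its lowest C5 library lay within the WT range, and all 4 C6 libraries (77.1, 79.4, 66.5 and 74.3) lay below it.

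On the other side of the turn, FLT1 was a weakly expressed gene with 1.1, 3.28, 1.71 and 0.848 FPKM in WT. It had 0.279, 0.669, 0.408 and 0.235 in C5 and 0.278, 0.256, 0.169 and 0.707 in C6. All values of both clones were below WT, at levels under 1 FPKM. EV, with 1.51, 0.411, 0.887 and 0.997, overlapped WT and also both clones. POMP, the chaperone that assembles the proteasome core, was the first well-expressed gene beyond the turn, with 123, 94.9, 146 and 143 FPKM in WT and 69.5, 51.7, 70.4 and 61.9 in C5. C6 had 81.9, 82.2, 79.1 and 47. Neither clone overlapped WT for POMP, and the mean differences were -0.98 in C5 and -0.81 in C6.

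The genes next to this turn that are no members lay on the side of their neighbours. RPL21, a ribosomal protein gene before PAN3, had a mean of 1430 FPKM in WT and 2400 in C5 (log2 difference 0.74), LNX2 differed by 0.47 and CDX2 by 0.75. Beyond FLT1, SLC46A3 differed by -0.42, with 1 of 4 C5 libraries above the WT mean, and SLC7A1, a transporter of cationic amino acids, by -0.70.

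The place of the largest step was taken as the cut of the chromosome 13 genes in order that removed most of the sum of squares of the differences from WT. Over the 237 members and other genes of chromosome 13 with a mean of at least 1 FPKM, the cut in C5 fell between PAN3 and FLT1 and took 54.4% of the sum of squares, with a median of 0.53 over the 43 genes before it and of -0.67 over the 194 genes after it. Each of the 4 C5 libraries gave the same cut on its own, with 58.4%, 33.1%, 55% and 40.5%. The turn was known from these libraries when the members were chosen, so the cuts only describe it. For the mean of 4 libraries, the best cuts of the other lines lay elsewhere and took 8.74% (C2), 3.58% (C1), 2.30% (C6), 1.32% (C3), 1.29% (EV) and 1.02% (C4). Taken on its own, C4 replicate 4 also cut between PAN3 and FLT1, with 1.39%. As the values are sums over whole genes and FLT1 was low, they do not place the turn within a gene, and POMP starts 163919 bases beyond FLT1.

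**Figure D1:**
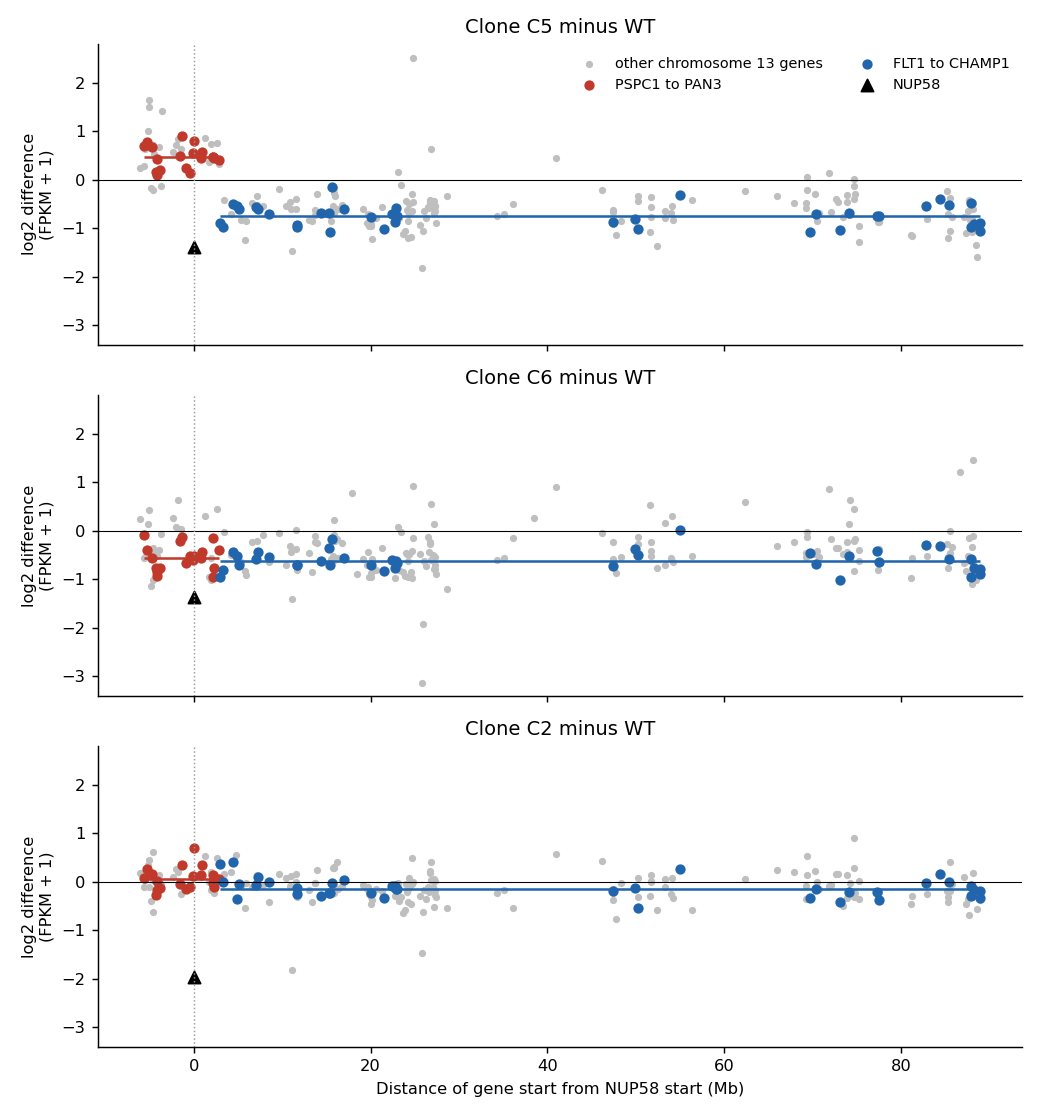
Log2 difference from WT of FPKM + 1 (vertical axis) against the distance of each gene's start from the start of NUP58 in Mb (horizontal axis) for clones C5, C6 and C2. Red points are the genes from PSPC1 to PAN3, blue points those from FLT1 to CHAMP1, grey points other chromosome 13 genes with a mean of at least 1 FPKM, the triangle is NUP58 and the horizontal lines are the medians of the red and blue points, which are 0.46 and -0.74 in C5, -0.56 and -0.63 in C6 and 0.05 and -0.14 in C2.

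In C5 the 19 proximal genes were all higher than in WT on average, with a median difference of 0.46 and a range of 0.09 to 0.90. The 39 distal genes tested were all lower, with a median of -0.74 and a range of -1.08 to -0.15. The median over all 13164 genes tested in C5 was 0.01. In linear FPKM the median proximal gene stood at 139% of its WT mean (quartiles 128% and 157%) and the median distal gene at 57.1% (quartiles 50.3% and 62.8%).

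An adjusted p under 0.05 (limma) was reached by 35 of the 58 members in C5, beside 7.55% of all genes tested. These were 5 proximal genes, all higher, beside 3.28% of all genes called higher, and 30 distal genes, all lower, beside 4.27% called lower. All 4 C5 libraries lay above all 4 WT libraries for 8 of 19 proximal genes (8.59% of all genes) and below them for 35 of 39 distal genes (8.02% of all genes). The choice of the members used this contrast, so the counts describe it and nothing is read from them.

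The proximal genes highest in C5 were SPATA13, a guanine nucleotide exchange factor, ATP8A2, a phospholipid flippase, and ZMYM2, a zinc finger protein of transcriptional repressor complexes. SPATA13 had 5.11, 5.28, 5.41 and 4.63 FPKM in WT and 12.9, 8.97, 12.1 and 8.25 in C5, a difference of 0.90, and the values did not overlap. ZMYM2 had 22.2, 24.4, 19.2 and 22.3 in WT and 41.9, 39.7, 37.7 and 34.6 in C5, a difference of 0.78, again without overlap. ATP8A2 was low in all lines, with 2.29, 1.94, 1.15 and 1.30 in WT and 3.27, 4.96, 1.99 and 4.61 in C5, and the lowest C5 library lay within the WT range. The gene symbol SPATA13 is carried by 2 identifiers, and the values are those of ENSG00000182957.15, the expressed one.

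The distal genes lowest in C5 were MRPS31, a protein of the small mitochondrial ribosome subunit (-1.08), ABCC4, an exporter of cyclic nucleotides and drugs (-1.07), and CDC16, a subunit of the anaphase-promoting complex (-1.06). MRPS31 had 25.6, 20.2, 23.9 and 25.6 FPKM in WT and 11.3, 9.77, 11.6 and 10.2 in C5. ABCC4 had 6.69, 8.27, 9.01 and 6.79 in WT and 2.75, 3.42, 3.35 and 2.91 in C5. For both genes, and for CDC16, every C5 library lay below every WT library.

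CDC16 lies 88.9 Mb beyond the start of NUP58 and CHAMP1, a zinc finger protein of the kinetochore and the last member, 89.0 Mb beyond it, so the lower values reached the end of the list. CHAMP1 had 33, 18.8, 39.3 and 35.9 FPKM in WT and 17.9, 14.2, 17.2 and 15 in C5. The difference of -0.90 came with a single low WT library, replicate 2. PSPC1, a paraspeckle protein and the first member, had 49.3, 47, 31.2 and 31.7 in WT and 67.7, 64.3, 69.6 and 54.4 in C5, all above WT.

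**Figure D2:**
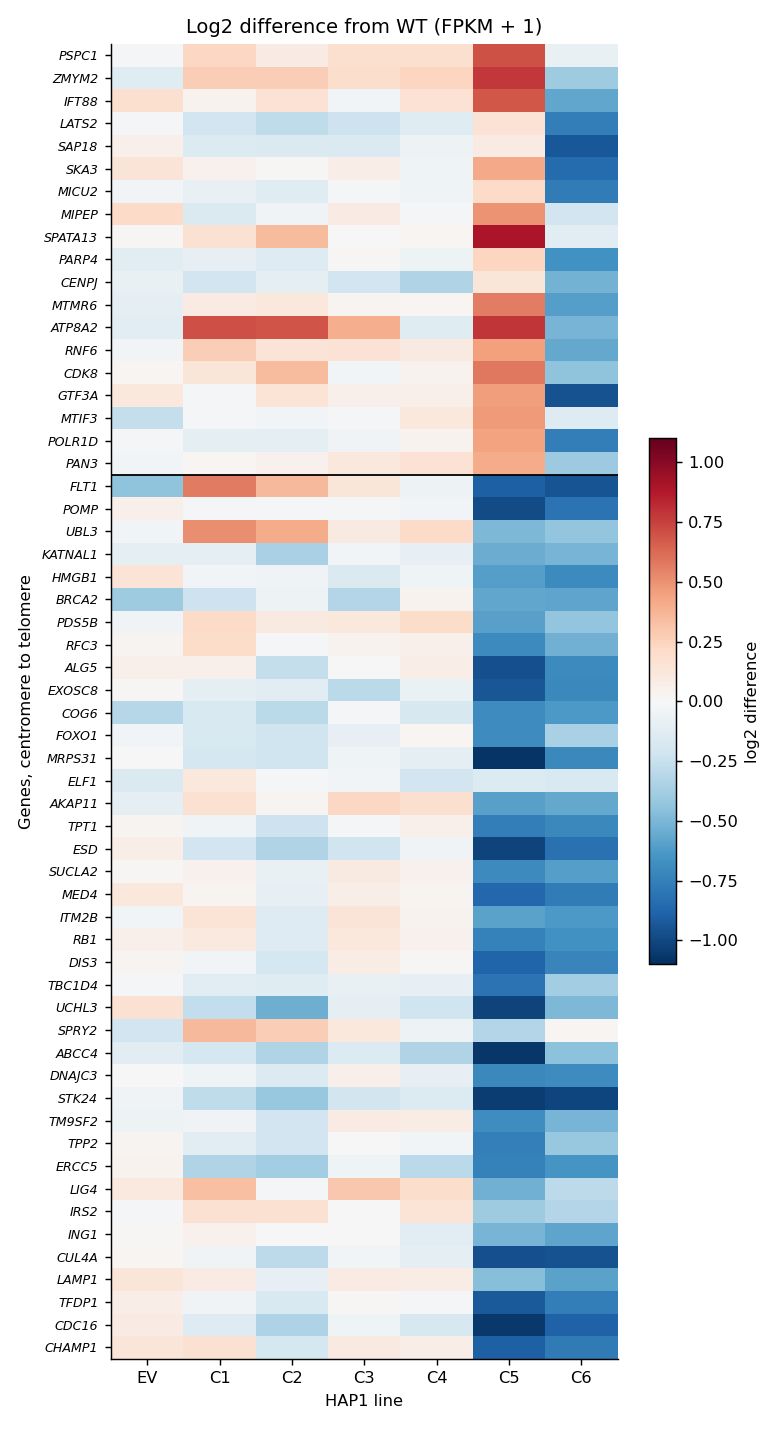
Mean log2 difference from WT (FPKM + 1) of the 58 members tested in HAP1 (rows, in order of their start from the centromere to the telomere) in each line (columns), with red for higher and blue for lower. The black line divides PAN3 from FLT1: in C5 all 19 rows above it are red and all 39 below it are blue, and in C6 all rows but SPRY2 (0.02) are blue.

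C6 showed no such turn. The 19 proximal genes were all lower than WT, with a median of -0.56 and a range of -0.96 to -0.08, and 38 of the 39 distal genes were lower, with a median of -0.63 and a range of -1.01 to 0.02. The median over all 13371 genes tested was 0.02. In linear FPKM the median proximal gene stood at 63.2% and the median distal gene at 62.3% of WT. An adjusted p under 0.05 was reached by 36 of 58 members, beside 11.7% of all genes tested, by 12 proximal and 24 distal genes, all lower, beside 5.39% called lower. None (0) was called higher, beside 6.28% of all genes. All C6 libraries lay below all WT libraries for 14 proximal and 29 distal genes, beside 8.39% of all genes, and above them for no member (0), beside 10.6%.

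The lowest members in C6 were STK24, a kinase of the germinal center family (-1.01), CUL4A, a scaffold of cullin-RING ubiquitin ligases (-0.96), and GTF3A, the factor TFIIIA of 5S rRNA genes (-0.96). STK24 had 62.1, 63.3, 52.1 and 56.9 FPKM in WT, 28.3, 29, 26.9 and 27.1 in C5 and 29.5, 30.1, 27.6 and 27.2 in C6. Both clones were far below WT and spread little. GTF3A, which is proximal, had 105, 85.7, 113 and 117 in WT, 149, 132, 177 and 125 in C5 and 57.6, 54.9, 60.2 and 41.8 in C6, so that C5 lay above and C6 below every WT library. The members closest to WT in C6 were SPRY2, an inhibitor of receptor tyrosine kinase signalling (0.02), PSPC1 (-0.08) and SPATA13 (-0.12). SPRY2 had 3.59, 4.48, 5.03 and 3.75 in WT and 4.84, 4.20, 3.51 and 4.55 in C6, which overlapped throughout.

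**Figure D3:**
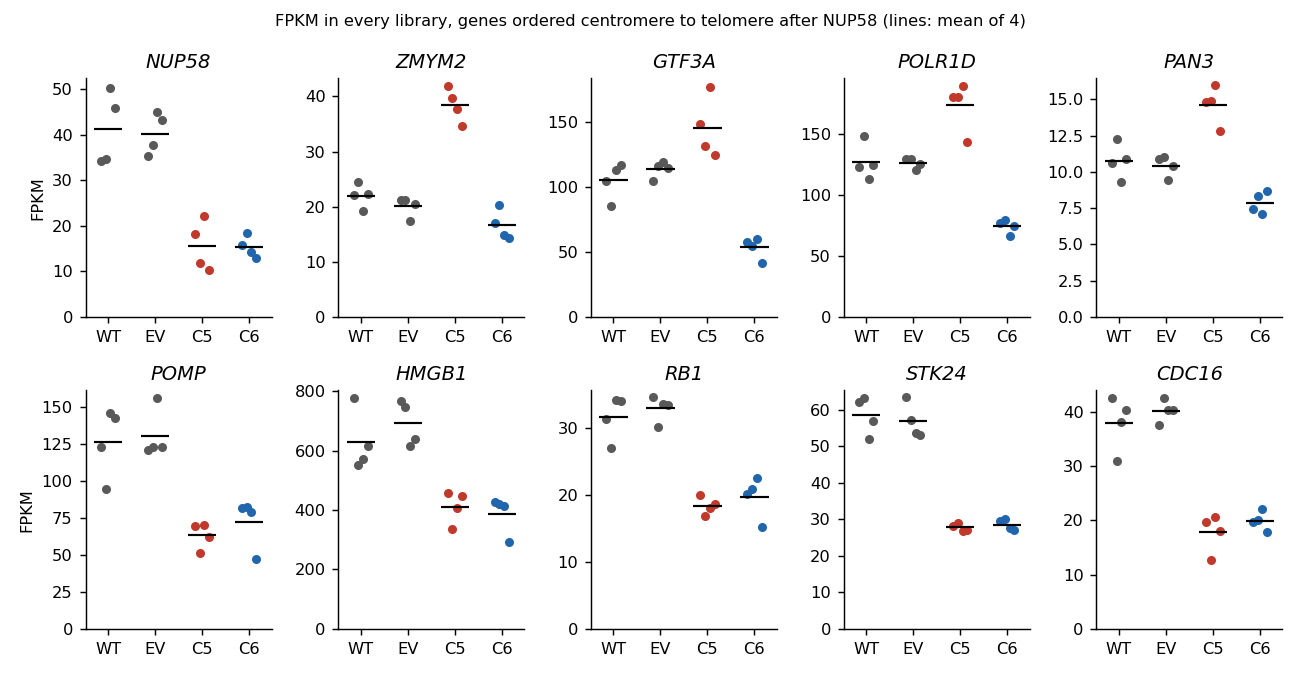
FPKM (vertical axis, from 0) of NUP58 and of 9 members in every WT, EV, C5 and C6 library (points), with the mean of 4 as a line. ZMYM2, GTF3A, POLR1D and PAN3, which come before the turn, are highest in C5 and lowest in C6, while POMP, HMGB1, RB1, STK24 and CDC16, which come after it, are low in both clones.

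The functions of the members were spread over both sides of the turn. On the whole sides, 5 of 19 proximal genes were called higher and 30 of 39 distal genes lower in C5, beside 3.28% and 4.27% of all genes. In C6, 12 of 19 proximal and 24 of 39 distal genes were called lower, beside 5.39% of all genes. The counts by function that follow are to be read beside these shares, and no function was tested against them. Of the genes of cell division, centrosome and cilium, 1 of 3 proximal genes was called higher in C5 and 5 of 6 distal genes lower, with medians of 0.42 and -0.82. In C6 all 3 proximal and 5 of 6 distal genes were called lower, but the call of CENPJ (limma, adjusted p = 0.0421) was lost in the fit blocked by replicate number and in 7 of 8 fits without a library. CENPJ, which sets the length of centrioles, was among the proximal genes, with 13.5, 13.8, 14.4 and 11.7 FPKM in WT and 16.1, 15.5, 18.3 and 9.93 in C5. Its 4th C5 library lay below WT and the other C5 libraries above it. TFDP1, the partner of E2F factors, was distal and stood at 134 ± 19.1 FPKM (SD, n = 4) in WT, 70.0 ± 10.9 in C5 and 78.5 ± 12 in C6.

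Of the genes of DNA repair and replication, the single proximal gene, PARP4, differed by 0.24 in C5 and by -0.67 in C6, and 2 of 4 distal genes were called lower in C5 and 1 of 4 in C6. BRCA2 had 4.95, 3.93, 5.48 and 4.38 FPKM in WT, 3.34, 1.61, 3.93 and 2.78 in C5 and 2.85, 2.56, 4.19 and 1.89 in C6. The highest libraries of both clones reached the WT range, and BRCA2 was not called in either clone (differences -0.57 and -0.58). EV, which carries no NUP58 mutation, had 3.73, 3.22, 3.51 and 2.91, all below WT as well. RFC3, a subunit of the clamp loader, differed by -0.70 in C5 and -0.53 in C6, and ERCC5, the endonuclease XPG of nucleotide excision repair, by -0.74 and -0.65.

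Of the transcription and chromatin genes, 2 of 5 proximal genes were called higher and 3 of 5 distal genes lower in C5, and 4 of 5 proximal and 3 of 5 distal genes lower in C6. SAP18, which is part of a histone deacetylase complex and of the exon junction machinery, was the proximal gene closest to WT in C5 (0.09) and among the lowest in C6 (-0.93). It had 82.8, 65.9, 77.6 and 88.2 FPKM in WT and 89.4, 70.4, 108 and 70.9 in C5, which overlapped, but 46.8, 46.1, 46.3 and 27.1 in C6. HMGB1, a chromatin protein and one of the most abundant members, had a mean of 629 FPKM in WT, 411 in C5 and 388 in C6.

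RB1 lies 23 Mb beyond NUP58 and had 31.3, 27, 34.2 and 34 FPKM in WT. It had 20, 16.9, 18 and 18.7 in C5 and 20.1, 20.8, 22.5 and 15.2 in C6, in both clones below every WT library. In EV it had 34.6, 30.1, 33.5 and 33.4. The mean differences from WT were -0.74 in C5, -0.67 in C6 and 0.06 in EV.

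Of the RNA processing and decay genes, 1 of 2 proximal genes was called higher in C5. Both distal genes, EXOSC8 (-0.94) and DIS3 (-0.88), components of the RNA exosome, were called lower in C5 and in C6 (-0.71 and -0.73). Of the ubiquitin and protein turnover genes, RNF6, a ubiquitin ligase, was the only proximal one and differed by 0.45 in C5 and -0.56 in C6. All 5 distal genes were called lower in C5 (median -0.97) and 3 of 5 in C6 (median -0.49), and UCHL3, a deubiquitinase, differed by -1.02 and -0.49. Of the mitochondrial genes, none (0) of 3 proximal genes was called in C5, and MICU2, a regulator of the calcium uniporter, differed by 0.21 there and by -0.77 in C6.

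Of the genes of membranes, glycosylation and secretion, none (0) of 2 proximal genes was called in C5 (median 0.68), 6 of 7 distal genes were lower in C5 (median -0.69) and 4 of 7 in C6 (median -0.63). ALG5, a glucosyltransferase of the dolichol pathway, differed by -0.97 and -0.70. MTMR6, a phosphoinositide phosphatase next to NUP58, had 8.63, 7.35, 11 and 9.94 FPKM in WT, 15.6, 13.1, 17 and 10.9 in C5 and 5.61, 6.21, 5.39 and 5.38 in C6. Of the signalling genes, 1 of 2 proximal genes was called higher and 3 of 6 distal genes lower in C5, and 1 of 2 and 2 of 6 lower in C6. TPT1, a translationally controlled protein, and ESD, an esterase, which fell in none of these groups, differed by -0.76 and -1.02 in C5 and by -0.71 and -0.82 in C6.

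Strand and gene length were compared within each side of the turn. In C5 the median of the proximal genes was 0.58 for 9 genes on the plus strand and 0.44 for 10 on the minus strand, and that of the distal genes -0.73 for 20 and -0.76 for 19. Distal genes that span at least 50000 bases had a median of -0.70 (23 genes) and shorter ones of -0.81 (16 genes). Distal genes with at least 10 FPKM in WT had a median of -0.81 (27 genes) and those under 10 FPKM of -0.56 (12 genes). The proximal genes ran the other way, with a median of 0.45 at 10 FPKM or more (14 genes) and of 0.68 under it (5 genes). In C6 the distal genes of these 2 FPKM classes had medians of -0.70 and -0.48. The 1 added to each FPKM before taking log2 shrinks the differences of low genes more. How much of the distal gaps between these classes comes from that scale was not tested.

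Most other genes of chromosome 13, which the choice of members did not list, lay on the same sides in C5. The exceptions were 3 of 26 genes before FLT1, which were below WT (-0.22 to -0.13), and 7 of 147 from FLT1 on, which were above it, by up to 2.51 (DLEU1_1). Of 26 tested before FLT1, 11 were called higher and none (0) lower, with a median of 0.64, and of 147 from FLT1 on, 72 were called lower and none (0) higher, with a median of -0.65. In C6 the corresponding medians were -0.43 over 24 genes (5 called lower, 0 higher) and -0.47 over 155 genes (57 called lower, 2 higher). More of these genes went the other way than in C5, with 9 of the 24 and 20 of the 155 above WT. These genes share their libraries and their neighbourhood with the members. Chromosome 13 had the lowest median of all chromosomes in both clones, -0.58 in C5 and -0.52 in C6. In C5 chromosome X was close to it with -0.55 over 447 genes, while chromosome X had 0.05 in C6, where the next lowest was chromosome 6 with -0.08.

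The 4 C5 libraries differed in how far the proximal genes lay above WT. Their median was 0.61 in library 1, 0.44 in library 2, 0.71 in library 3 and 0.23 in library 4, with a mean of 0.50 ± 0.21 (SD, n = 4). The distal medians of the same libraries were -0.69, -0.84, -0.77 and -0.71, a mean of -0.76 ± 0.07 (SD, n = 4). NUP58 itself differed from the WT mean by -1.12, -1.69, -0.85 and -1.88, so the order of the libraries was the same as for the proximal median. The difference of NUP58 from the proximal median of its own library was -1.735, -2.133, -1.565 and -2.117 log2 units in C5 and -0.70, -0.645, -0.827 and -0.917 in C6. It ran from -0.97 to -0.40 in C4, which overlapped C6. The other clones ran from -1.83 to -1.45 (C3), from -2.03 to -1.85 (C1) and from -2.25 to -1.85 (C2). With 4 libraries no correlation was computed.

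**Figure D4:**
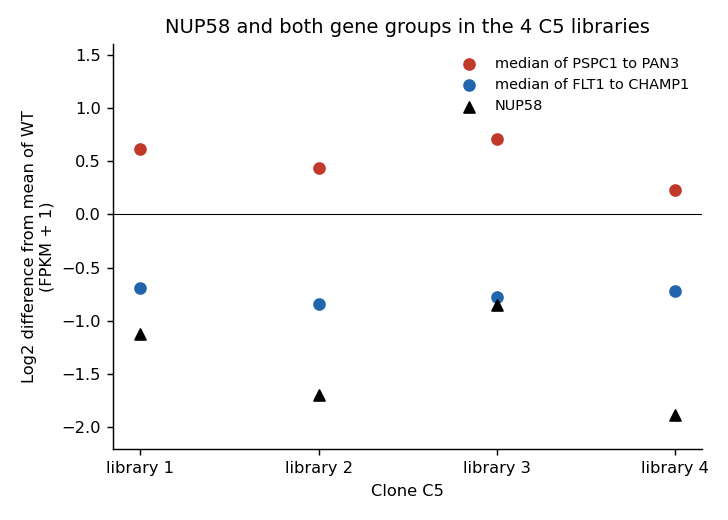
Log2 difference from the WT mean (FPKM + 1, vertical axis) in each of the 4 C5 libraries (horizontal axis): median of the genes from PSPC1 to PAN3 (red), median of those from FLT1 to CHAMP1 (blue) and NUP58 (triangles). The red points and the triangles are highest in library 3 (0.71 and -0.85) and lowest in library 4 (0.23 and -1.88), while the blue points stay between -0.84 and -0.69.

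In EV and in C1, C2, C3 and C4 none (0) of the 58 members was called. The percentages of all genes called were 0.038% for EV, 0.479% for C1, 0.732% for C2, 0.0911% for C3 and 0.16% for C4, so that a count of 0 among 58 is close to these shares. At an unadjusted p under 0.05 there was 1 member each for EV, C3 and C4, against 274, 633 and 870 of all genes, while C1 had 6 members against 1542 genes and C2 had 11 against 1666. The proximal and distal medians were -0.01 and 0.01 in EV, 0.02 and -0.03 in C1, 0.01 and 0.00 in C3 and 0.02 and -0.03 in C4.

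C2 was the line in which the distal genes departed most from 0 among these 5. Its distal median was -0.14, with 32 of 39 genes below WT, and the library medians were -0.20, -0.20, -0.05 and -0.12. The 4 WT libraries had distal medians of -0.10 to 0.06 around their own mean. Only C2 replicate 3 (-0.05) lay within that range, and the other C2 libraries lay below it. Replicate 2 of C1 (-0.153), C3 (-0.107) and C4 (-0.103) lay below that range too, and C3 replicate 1 (0.071) above it. Low medians in C2 were not limited to chromosome 13. Over all genes tested they were -0.17 for chromosome 22, -0.15 for chromosome 14, -0.11 for chromosome 9 and -0.10 for chromosome 13. For the mean of 4 libraries, the best cut of C2 fell between LINC00365 and KATNAL1, a katanin-like microtubule severing protein, and not at FLT1. Its place was not stable. Replicates 2 and 3 gave the same cut, replicate 1 cut between SPG20 and CCNA1 and replicate 4 between TUBGCP3 and ATP11A. Over genes with a mean of at least 5 FPKM, the cut of the mean fell between RFXAP and ALG5. ATP8A2 was the member with the largest difference in C1 (0.71) and C2 (0.69), with 2.91, 4.97, 2.48 and 3.28 FPKM in C1 and 4.53, 3.23, 2.77 and 2.64 in C2, and it was not called.

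Against the mean of C1 to C4, which carry NUP58 mutations too, 49 of 58 members were called in C5, 14 proximal genes higher and 35 distal genes lower, beside 9.72% of all 13180 genes tested. In C6 46 members were called, 15 proximal and 31 distal, all lower, beside 17.3% of all genes. The medians were 0.40 and -0.74 in C5 and -0.63 and -0.62 in C6. PAN3 differed from the mean of C1 to C4 by 0.33 in C5 and -0.49 in C6, and POMP by -0.96 and -0.79. NUP58 differed from the same mean by 0.15 (SE 0.135, adjusted p = 0.588) in C5 and 0.18 (SE 0.135, adjusted p = 0.414) in C6 by limma. That mean joins unlike clones, with NUP58 at 10.1 (C1), 9.8 (C2), 12.8 (C3) and 25.5 FPKM (C4), beside 15.6 in C5 and 15.4 in C6. The small differences thus do not show equal levels in the single clones. The counts of members use the C5 and C6 libraries that chose the members and are a description.

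The HCT116 libraries were not used to choose the members. NUP58 had 25.3, 23.3, 44.7 and 24.3 FPKM in the libraries labelled as the clone and 23.9 to 50.3 (median 45.4) in the 11 controls, so that replicate 3 of the clone lay among the controls and the control labelled EV2 replicate 3, at 23.9, among the clone. With all libraries, 0 of 57 members tested were called by limma, beside 0.0% of all 12960 genes. At an unadjusted p under 0.05 there were 11 members and 1342 genes. The proximal median was 0.03 over 18 genes, with a range of -0.21 to 0.57, and the distal median 0.00 over 39 genes, with a range of -0.61 to 0.48.

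At the place of the C5 turn, PAN3 had 12.2, 13.4, 9.61 and 14.8 FPKM in the HCT116 clone and 9.23 to 13.2 (median 11.5) in the controls, a difference of 0.10 (SE 0.114, adjusted p = 0.782, limma). POMP had 123, 110, 175 and 105 against 91.3 to 171 (median 136), and RB1 24.2, 20.5, 22.7 and 22.2 against 15.4 to 27.5 (median 22.7). The values of all 3 genes overlapped between clone and controls. FLT1 and ATP8A2 were under the limit of 1 FPKM, while DNAJC15, which was near 0 in HAP1, had 8.61, 9.56, 6.77 and 6.71 FPKM in the HCT116 clone and 5.68 to 9.76 in the controls.

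Without the clone library labelled replicate 3, 7 distal members were called in HCT116, beside 555 of 12984 genes (4.27%), and without all HCT116 libraries numbered 3, 7 members, 6 of them the same, beside 769 of 13000 genes (5.92%). The latter 7 were EXOSC8 (-0.77), MRPS31 (-0.44), UCHL3 (-0.48) and STK24 (-0.45), which were lower, and FOXO1 (0.59), TBC1D4 (0.52) and SPRY2 (0.71), which were higher. FOXO1, a forkhead transcription factor, and TBC1D4 were named after their values were seen. EXOSC8 had 35.6, 30.9, 58.1 and 30.1 FPKM in the clone libraries and 42 to 89.4 in the controls, and only replicate 3 lay within the range of the controls. TBC1D4, a Rab GTPase-activating protein of glucose uptake, had 19.6, 19.7, 17.9 and 20 and 10.7 to 16.4, without overlap. The members called in HCT116 without these libraries, all on the telomeric side of PAN3, were thus both higher and lower.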

How the data were processed

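RNA from 47 cell line libraries was sequenced as read pairs on a HiSeq4000. Per the labels and the methods of the study, the authors trimmed adaptors, checked reads with FastQC, used STAR for alignment to GRCh38.p13 and RSEM for quantification, and deposited FPKM without further normalization. The number of fragments behind a value is unknown. All tests were run on log2(FPKM + 1) with limma 3.58.1 (R 4.3.3; lmFit, eBayes with trend), over genes that averaged 1 FPKM or more in the libraries fitted, with Benjamini-Hochberg adjustment over all genes and a threshold of 0.05. Each HAP1 line was compared with WT, C5 and C6 also with the mean of C1 to C4, and the HCT116 clone with 11 controls. Tested on simulated data for 4 libraries against 4, the fit called 109 of 200 genes changed by 1 log2 unit and 0 of 200 changed by 0.5. The members and gene lists were chosen with earlier results of these data known. Named were the members beside NUP58 and beside the C5 turn, the first and last, RB1, BRCA2, the 3 highest and lowest in C5 and in C6, and up to 2 per function; HMGB1, PARP4, KATNAL1, ELF1, DNAJC15, FOXO1 and TBC1D4 were added after their values were seen. Positions came from GENCODE release 44 (56417 of 57507 identifiers matched). Deviations of same-numbered libraries from WT correlated by over 0.1 in all 4 pairs for EV and C1 to C4 (lowest 0.15), but not for C5 (lowest -0.03) or C6 (-0.36), so a fit with the replicate number as a block was an alternative. The others were another pseudocount, no low-value filter, other scalings, limma without trend or moderation, EV as control, other thresholds and leaving out each library.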

Additional observations from a re-analysis of the deposited data

Results flagged for a closer look

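The proximal median relative to WT had opposite signs in all 4 libraries of C5 (mean 0.50) and all 4 of C6 (mean -0.59). The difference was not tested, since it chose the members.

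Over 120 groups of 4 libraries, the lowest or highest library stood apart from the other 3 (Dixon's criterion) in 11, where chance gives about 1 in 20. The distal median of C1 replicate 2 was -0.153, against 0.03 to 0.045 in the other 3. FLT1 had 11.7 FPKM in C1 replicate 2 and 6.15 in C4 replicate 2, against 1.26 to 2.25 and 0.378 to 1.01 in the others. POMP had 156 FPKM in EV replicate 3 (others 121 to 123) and 47 in C6 replicate 4 (others 79.1 to 82.2). RB1 had 25.9 in C1 replicate 2 (others 36.7 to 38.3) and CHAMP1 20.9 in C3 replicate 2 (others 36.6 to 39.5). MTMR6 had 13.4 in C2 replicate 2, ATP8A2 0.666 in C6 replicate 3, POLR1D 138 in C3 replicate 2 and PAN3 9.74 in C3 replicate 3. Libraries numbered 2 held the lowest RB1, POMP and CHAMP1 value in 6 of 8 HAP1 lines each and the highest FLT1 value in 6 of 8, and those numbered 3 the lowest PAN3 value in 7 of 8. What the numbers share was not tested.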

How the results depend on the processing

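The numbers of members called in C5 and C6 stayed within 1.5 times of 35 and 36 under all alternatives run but the threshold of an unadjusted p under 0.01 with a fold over 2, which left 6 in C5 and 1 in C6 against WT, and 1 in C5 and 2 in C6 against the mean of C1 to C4. That threshold admits only genes past a fold of 2, which few members reached. Leaving out each library gave 24 to 34 called members in C5 and 24 to 35 in C6, and 39 to 51 and 41 to 47 against the mean of C1 to C4. The counts of 0 became 1 in C1 and 2 in C2 with all 32 HAP1 libraries in one fit, and 3 and 6 with WT and EV together as control, and stayed at 0 for EV, C3 and C4; the cause was not tested. With the replicate number as a block, 46 members were called in C5 and 29 in C6, and 0 in EV and C1 to C4, and 2 named calls were lost, CENPJ and MTMR6 in C6. A pseudocount of 0.1 moved the proximal median of C6 to -0.65, as it shrinks low values less. Over the fits without 1 library the proximal median was 0.38 to 0.55 in C5, -0.61 to -0.52 in C6 and 0.01 to 0.06 in C3, and the distal median of EV was -0.02 to 0.02. In HCT116 those fits called 0 to 7 members, 7 without the clone replicate 3, with proximal medians of 0.02 to 0.07 and distal medians of -0.05 to 0.04, and without all libraries numbered 3 there were 7 members and a proximal median of 0.08. No median of a group that reached 0.4 in size changed sign. Of 46 calls of NUP58 or a member named by the rule in a HAP1 clone, 37 held without any single library; the members added later were not run. The others kept their direction. CHAMP1 in C5 (-1.12 to -0.78) and C6 (-1.01 to -0.67) and CENPJ and MTMR6 in C6 lost the call in 7 of the 8 fits without a library, PSPC1 (0.59 to 0.81) and ERCC5 (-0.86 to -0.63) in C5 in 6, POMP in C6 in 4, RNF6 in C6 in 3 and ALG5 in C6 in 1, without C6 replicate 2. FLT1, ATP8A2 and ELF1 were under 2 FPKM in WT. In the simulated data, where 200 genes were changed, none (0) changed by 0.5 log2 units was called at 4 libraries against 4. That share does not carry over to C6. There RFC3 (-0.53, limma adjusted p = 0.0136) was called and BRCA2 (-0.58, limma adjusted p = 0.0918) was not.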
